A study of Homo sapiens with 6 samples.

Results

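The genes described here are 33 stress-response genes of the endoplasmic reticulum (ER) and of the transcription factor ATF4, chosen by symbol from the 25368 gene symbols of 2 expression tables. All 33 symbols were found in both tables. By role they were split into 14 ER folding genes, 4 stress sensors and their transcription factors, 3 genes of ER-associated degradation (ERAD), and 12 genes of the ATF4 arm. Each value is an FPKM, the number of sequenced fragments of a gene relative to the length of its exons and to all fragments mapped in that library. The 6 RNA-seq libraries came from MRC5, hTERT-immortalised human embryonic lung fibroblasts, with 1 library per condition.

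The first table, of JUN overexpression, holds 3 libraries of cells infected with adenovirus for 2 h and cultured for 3 days. The control carried the empty vector, JUN WT carried FLAG-tagged wild-type JUN, and JUN AA carried a FLAG-tagged mutant in which the serines phosphorylated by JNK are alanines. The second table, of JNK inhibition, holds untreated MRC5, induced cancer-associated fibroblasts (iCAFs) and iCAFs+JNKi. The iCAFs had been kept for 7 days in medium conditioned by MDA-MB-231 breast cancer cells, and iCAFs+JNKi were such cells given 1 µM of the JNK inhibitor JNK-IN-8 for 48 h, with DMSO named in the labels as the vehicle. The paper describes conditioned medium as collected in DMEM without serum, and MRC5 as maintained in DMEM with serum. It does not state whether serum was added for the 7 days. Serum and factors from the cancer cells thus cannot be told apart as sources of a difference between iCAFs and MRC5. The tables were normalised separately, so levels were compared only within a table. No replicate error could be estimated for any value, and no test between conditions was possible. In such bulk libraries, fewer cells expressing a gene and less RNA per cell cannot be told apart.

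A protein entering the secretory pathway folds in the ER with the help of chaperones such as HSPA5 (BiP) and of disulfide isomerases. When unfolded proteins accumulate, the sensors IRE1 (encoded by ERN1), ATF6 and PERK (encoded by EIF2AK3) start the unfolded protein response: IRE1 splices XBP1 mRNA, and XBP1 and ATF6 induce chaperone and ERAD genes. PERK phosphorylates the translation factor eIF2α, which lowers protein synthesis as a whole and raises translation of ATF4. ATF4 then induces genes of amino acid synthesis and transport. Other kinases that sense amino acid shortage, viral RNA or haem also phosphorylate eIF2α, so that the ATF4 arm can be engaged without the ER arm. FPKM of a whole gene cannot tell spliced from unspliced XBP1 mRNA, and the mRNA level of ATF4 is not its activity.

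The DNA motifs through which these factors act were searched in the RefSeq promoter windows of the members, which run from 250 bases before to 50 bases after a transcription start on GRCh38.p14. Of the 33 members, 31 matched, with 43 windows; PDIA3 and SHMT2 did not. The ER stress element, bound by ATF6 and XBP1 together with the factor NF-Y, was searched as CCAAT, 9 bases, CCACG on both strands. It lay in 27 of all 35116 windows (0.0769%) and in 9 of the 43 member windows, belonging to 7 genes: HSPA5, HSP90B1, CALR, CANX, PDIA6, CRELD2 and XBP1. The related ER stress element II, searched as ATTGG, 1 base, CCACG and added after the first search had been seen, lay in 19 of all windows (0.0541%) and in those of HYOU1, SDF2L1 and HERPUD1. The ATF4 element TGATGNAAN lay in 1268 of all windows (3.61%) and in those of ASNS, CHAC1 and HERPUD1. An exact match is a description of these letters, not of binding.

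HSPA5, the most studied target of the unfolded protein response, shows how such a promoter reads. The 250 bases before its start (chr9:125241344-125241593, minus strand, GRCh38.p14) are printed 5′ to 3′ in gene orientation, with the fixed letters of its ER stress element in capitals.
HSPA5: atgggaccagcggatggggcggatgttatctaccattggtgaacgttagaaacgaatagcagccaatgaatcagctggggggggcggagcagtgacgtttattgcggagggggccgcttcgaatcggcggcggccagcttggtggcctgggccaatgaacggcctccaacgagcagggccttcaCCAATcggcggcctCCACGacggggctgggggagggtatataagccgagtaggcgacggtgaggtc

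The stretches below show the same element in 4 further members, ER stress element II in 2, and the ATF4 element in 2, each with 12 bases on either side and read on the strand on which the element runs forward. Capitals mark the fixed letters of the element. The PDIA6 stretch is chr2:10812841-10812883, XBP1 chr22:28800591-28800633, CALR chr19:12938372-12938414, CANX chr5:179698766-179698808, SDF2L1 chr22:21642102-21642136, HYOU1 chr11:119057262-119057296, ASNS chr7:97872456-97872488 and CHAC1 chr15:40953249-40953281. In PDIA6, XBP1, CANX and ASNS the element runs with the gene, and in CALR, SDF2L1, HYOU1 and CHAC1 against it.
PDIA6: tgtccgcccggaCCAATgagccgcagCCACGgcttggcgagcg
XBP1: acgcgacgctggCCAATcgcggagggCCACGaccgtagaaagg
CALR: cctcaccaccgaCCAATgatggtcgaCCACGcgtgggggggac
CANX: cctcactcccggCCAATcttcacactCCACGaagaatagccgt
SDF2L1: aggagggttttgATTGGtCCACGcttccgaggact
HYOU1: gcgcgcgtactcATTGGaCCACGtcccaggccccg
ASNS: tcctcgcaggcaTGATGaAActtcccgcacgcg
CHAC1: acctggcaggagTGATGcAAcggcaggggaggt

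The FPKM of all genes summed to 494603, 498514 and 613184 in control, JUN WT and JUN AA, and to 399532, 393521 and 359944 in MRC5, iCAFs and iCAFs+JNKi. All 9 fibroblast markers passed 1 FPKM in both tables, with sums of 4888 to 6773 FPKM in the first and 7615 to 11961 in the second, but their levels differed between conditions, with a median change of -0.57 in JUN WT and -0.59 in JUN AA against control (PDGFRB lowest in both, at -2.06 and -1.87) and of 1.07 in iCAFs+JNKi against iCAFs (COL3A1 highest, at 2.65). Of the 6 epithelial markers KRT8 and KRT18 passed, with the list at 19.7 to 56.2 FPKM in sum, and both were lower in JUN WT than in control, by 1.58 and 1.22, while CDH1 and ESRP1 were listed at 0 throughout. Of the 4 leukocyte markers CD68 passed, at 32.6, 85.7 and 31.1 FPKM in control, JUN WT and JUN AA, and CD3E was listed at 0 throughout. The endothelial markers summed to less than 1 FPKM. The part of these differences in the results below was not tested. JUN itself was at 25.5 FPKM in the control library, at 4543 with JUN WT and at 291 with JUN AA, so the phosphosite mutation and the amount of JUN RNA cannot be told apart as sources of any difference between JUN WT and JUN AA. A change is given below as the difference of log2(FPKM + 1), which understates the change of genes at low levels, and a fold as the ratio of FPKM. Counts and medians use genes whose mean in the table reached 1 FPKM. By this filter 32 members passed in the first table (all but ERN1) and 33 in the second. Rescaling each library to the same FPKM sum took the median change over all genes from -0.02 to -0.29 for JUN AA against control and from 0.18 to 0.47 for JUN WT against JUN AA, and the medians of the ER folding and ATF4 arm lists are therefore also given centred on the median gene.

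With JUN WT, the ER folding genes and the ATF4 arm lay on opposite sides of the control. Of the 14 ER folding genes, 13 were higher than in control and 3 of them at least 2-fold (a log2 change of 1), whereas 10 of the 12 ATF4 arm genes were lower and 7 of them at least 2-fold. For comparison, of the 10311 genes passing the filter 60.9% were higher in JUN WT and 39.1% lower, 6.92% and 3.39% by 2-fold or more. The median change was 0.59 over the ER folding genes and -1.18 over the ATF4 arm, against 0.15 over all genes, and the lists were 1.77 apart on the log2 scale. Centred on the median gene the medians were 0.44 and -1.32. In 10 of the 12 ATF4 arm genes the change was below that of every ER folding gene. Of all genes, 33.2% had a lower change than HYOU1, the lowest of the ER folding genes.

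**Figure D1:**
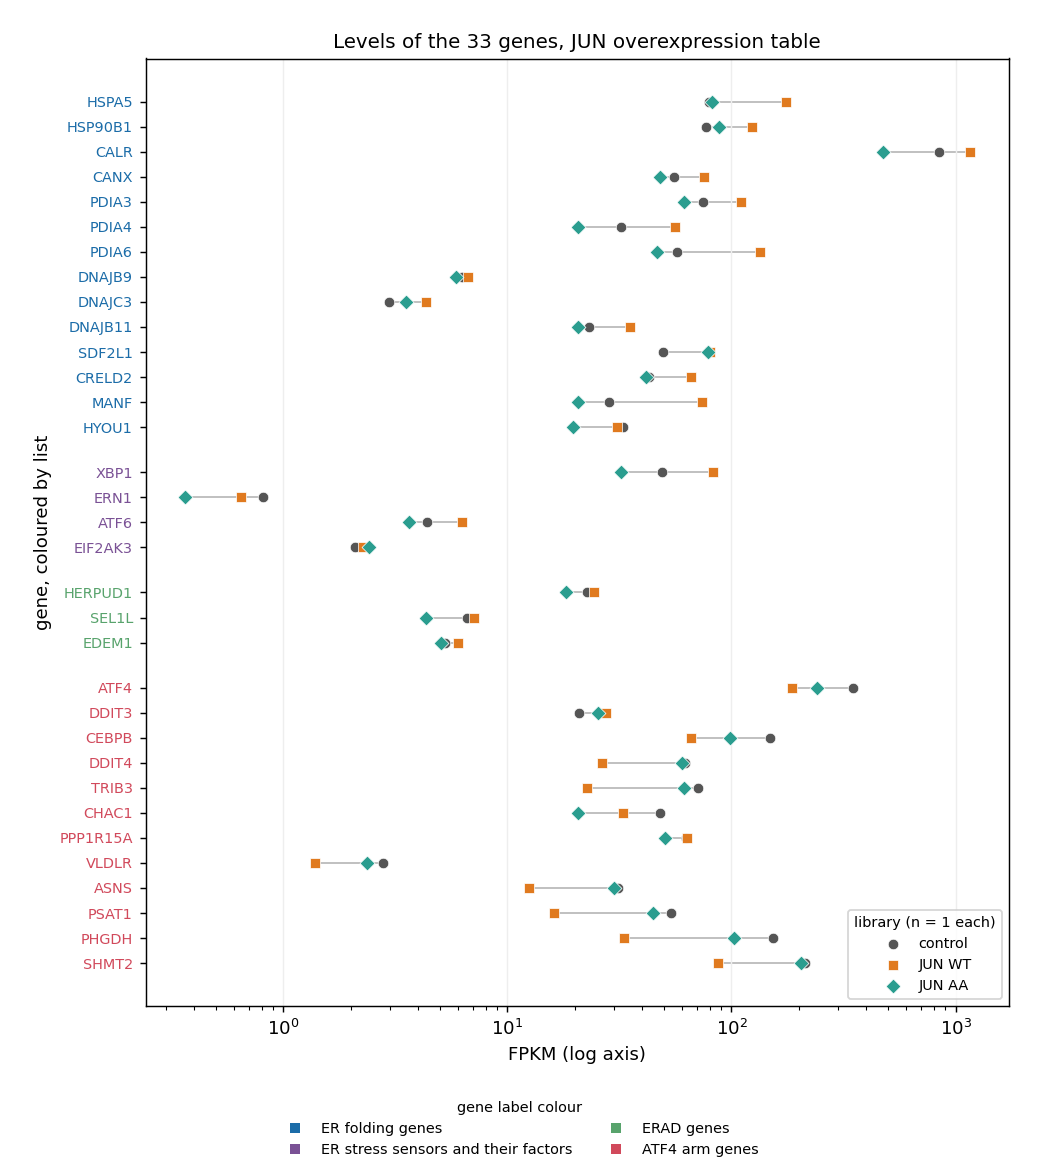
FPKM on a log axis of the 33 genes (rows, coloured by list) in control (grey), JUN WT (orange) and JUN AA (green), 1 library each. Most ER folding genes have JUN WT as the rightmost point, as for MANF at 73.6 FPKM, and the amino acid synthesis genes at the bottom have it as the leftmost, as for PHGDH at 33.2 FPKM.

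Among the ER folding genes, MANF, a secreted ER protein that helps cells survive ER stress, had 28.35 FPKM in control, 73.6 with JUN WT and 20.7 with JUN AA. JUN WT was 2.59-fold above control and JUN AA was the lowest library, and 2.57% of all genes had a higher change in JUN WT. PDIA6, a disulfide isomerase, read 57.05, 134 and 46.3 FPKM in the same order. HSPA5, the central ER chaperone of the HSP70 family (GRCh37, chr9:127997132-128003661), read 79.3, 175 and 81.8 FPKM. These were the members at least 2-fold higher in JUN WT than in control, with log2 changes of 1.34, 1.22 and 1.13. No exact element was found in the windows of MANF, while those of PDIA6 and HSPA5 hold the ER stress element printed above.

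A second tier of folding genes was 1.5-fold or more above control (a log2 change of 0.58) in JUN WT. PDIA4, another disulfide isomerase, had 32.3 FPKM in control, 55.7 with JUN WT and 20.6 with JUN AA. HSP90B1 (GRP94), the HSP90 chaperone of the ER, had 76.9, 123 and 88.25 FPKM. SDF2L1, a partner of the ER HSP40 proteins, had 49.65, 80.6 and 78.65 FPKM and was the one folding gene past 1.5-fold in both JUN libraries, by 0.69 and 0.65 on the log2 scale. CRELD2, a secreted disulfide isomerase family protein, had 42.8, 65.7 and 41.4 FPKM. DNAJB11, an HSP40 cochaperone of HSPA5, had 23.1, 35.1 and 20.7 FPKM. With the 3 above, 8 folding genes passed the 1.5-fold limit, and 9 of the 32 members, where 22.3% of all genes did so.

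The remaining folding genes differed less from control in JUN WT. The lectin chaperone calreticulin, CALR, the most abundant member, read 840 FPKM in control and 1155 in JUN WT but 475 in JUN AA. Its membrane-bound relative CANX read 55.4, 75.3 and 47.8 FPKM, and the lectin-linked isomerase PDIA3 read 75.0, 111 and 61.6 FPKM, log2 changes of 0.44 and 0.55 in JUN WT. The HSPA5 cochaperone DNAJC3, at 2.96, 4.33 and 3.52 FPKM, was 0.43 higher in JUN WT. DNAJB9, at 6.30, 6.65 and 5.92 FPKM, differed by 0.07, a sign that turned on centring. HYOU1 (GRP170), an HSPA5 nucleotide exchange factor, was the exception, with 32.7 FPKM in control, 30.8 with JUN WT and 19.5 with JUN AA. All 7 members with the ER stress element in a window were higher in JUN WT than in control, by 0.44 (CANX) to 1.22 (PDIA6), a direction held by 60.9% of all genes. Of the 3 with the second form of the element, SDF2L1 was 0.69 higher, HERPUD1 0.09 higher and HYOU1 0.09 lower. The folding genes with a window but neither form of the element were all higher too. These were MANF, PDIA4, DNAJB11, DNAJC3 and DNAJB9, by 1.34, 0.77, 0.58, 0.43 and 0.07. A higher level in JUN WT was thus not particular to genes with the element.

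Of the sensors and their factors, XBP1 differed most. XBP1 (GRCh37, chr22:29190543-29196585) had 49.1 FPKM in control, 82.8 with JUN WT and 32.2 with JUN AA, a log2 change of 0.74 in JUN WT and -0.59 in JUN AA. ATF6 had 4.38, 6.29 and 3.65 FPKM, in the same order of libraries. EIF2AK3 (PERK) was nearly level at 2.08, 2.26 and 2.41 FPKM, and ERN1 (IRE1) was under the filter at 0.81, 0.64 and 0.36 FPKM. The ERAD genes were near control in JUN WT. HERPUD1, an ER membrane protein that organises the degradation complex, had 22.75, 24.25 and 18.2 FPKM, SEL1L, the adaptor of the ERAD ubiquitin ligase, had 6.59, 7.08 and 4.33, and EDEM1, a mannose-trimming protein, had 5.26, 6.02 and 5.04. The small positive changes of these 3 genes in JUN WT, 0.09 to 0.17, and of EIF2AK3 turned negative, most of them already on centring, when the trend with transcript length and GC content was removed.

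In the ATF4 arm, the enzymes of serine and glycine synthesis were among the lowest relative to control in JUN WT. PHGDH, the first enzyme of the serine pathway (GRCh37, chr1:120191034-120286841), had 153 FPKM in control, 33.2 with JUN WT and 102 with JUN AA. It was 4.59-fold lower in JUN WT, a log2 change of -2.17, and 0.223% of all genes had a lower change. PSAT1, the next enzyme, had 53.8, 16.15 and 44.8 FPKM, 3.33-fold lower in JUN WT. SHMT2, the mitochondrial enzyme that makes glycine from serine, had 213, 86.6 and 205 FPKM, 2.46-fold lower. ASNS, asparagine synthetase, had 31.0, 12.5 and 29.9 FPKM, 2.48-fold lower, and carries the ATF4 element printed above 60 to 68 bases before a start. In all 4 enzymes JUN AA lay between control and JUN WT and nearer to control.

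The regulators of the ATF4 arm divided. ATF4 mRNA (GRCh37, chr22:39915700-39918688) was at 350 FPKM in control, 185 with JUN WT and 241 with JUN AA, a log2 change of -0.91 and -0.54. TRIB3, a pseudokinase that feeds back on ATF4, had 70.9, 22.8 and 61.55 FPKM, 3.11-fold lower in JUN WT. DDIT4 (REDD1), an inhibitor of mTORC1, had 61.9, 26.5 and 60.3 FPKM, 2.33-fold lower. CEBPB, a bZIP partner of ATF4, had 149, 66.2 and 98.9 FPKM, 2.25-fold lower in JUN WT. These 3 and the 4 enzymes are the 7 genes at least 2-fold lower, and with ATF4 and VLDLR they make the 9 at least 1.5-fold lower, against 10.1% of all genes. VLDLR, a lipoprotein receptor induced through PERK and ATF4, had 2.79, 1.39 and 2.36 FPKM, a 2.01-fold difference whose log2 change is held at -0.67 by the pseudocount of 1.

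The 3 remaining genes of the arm were DDIT3, PPP1R15A and CHAC1. DDIT3 (CHOP), which promotes death in prolonged ER stress, had 20.9 FPKM in control, 27.4 with JUN WT and 25.5 with JUN AA, higher than control in JUN WT by 0.38. PPP1R15A (GADD34), which directs dephosphorylation of eIF2α, was level in JUN WT at 62.7 and 63.2 FPKM and had 50.5 in JUN AA. CHAC1, a glutathione-degrading enzyme, had 48.0, 32.8 and 20.7 FPKM, a log2 change of -0.53 in JUN WT, and was the one ATF4 arm gene lower in JUN AA than in JUN WT by more than 1.5-fold.

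With JUN AA most members were slightly lower than in control in both lists. Of 32 members, 26 were lower than in control and 6 higher, where 51.4% and 48.6% of all genes were. CHAC1 was the one at least 2-fold lower (a log2 change of -1.17, against 3.77% of all genes) and none was at least 2-fold higher (5.29% of all genes). At 1.5-fold, 6 members were lower, namely CHAC1, CALR, HYOU1, PDIA4, XBP1 and CEBPB, and SDF2L1 was higher, where 12.1% of all genes were lower and 13.8% higher. The median was -0.18 over the ER folding genes and -0.23 over the ATF4 arm, or -0.16 and -0.22 centred on the median gene, so that the 1.77 gap seen with JUN WT was 0.051 here. HSPA5, HSP90B1, DNAJC3, EIF2AK3 and DDIT3 were higher than control in JUN AA by 0.04 to 0.28, a direction that turned when libraries were rescaled to one FPKM sum. DDIT4 and SHMT2, 0.04 and 0.06 lower as given, turned to slightly higher when length and GC trends were removed.

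**Figure D2:**
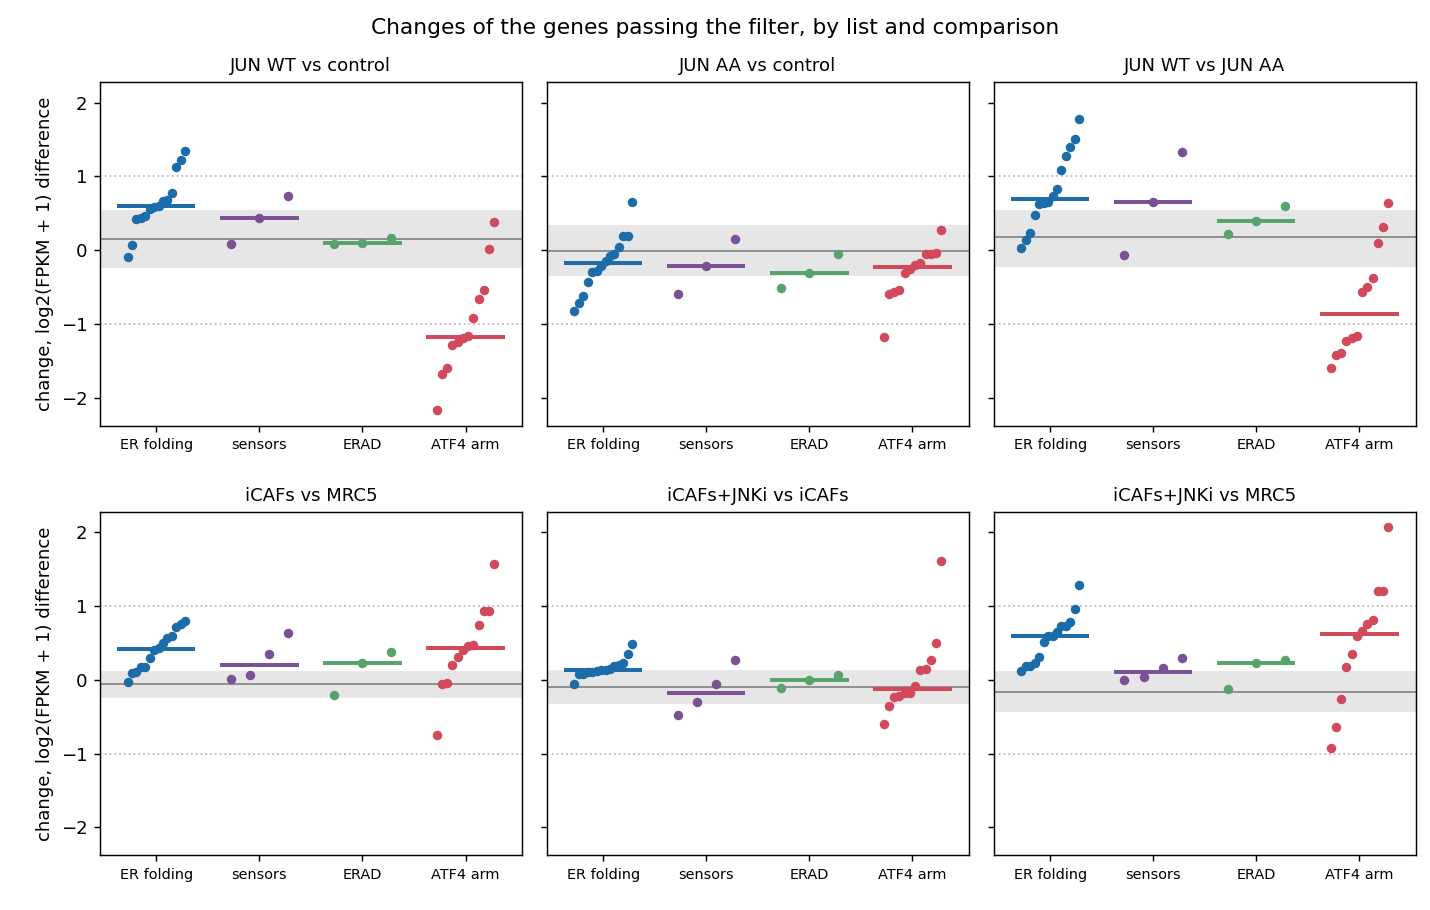
Change in log2(FPKM + 1) of each member passing the filter (points, in rising order within a list), with the median of each list as a bar, in the 6 comparisons. The grey line is the median of all genes passing the filter, the band is their middle 50%, and the dotted lines mark 2-fold. In the panels with JUN WT most of the ATF4 arm lies below the ER folding genes, with medians of 0.59 and -1.18 against control, and the lists overlap in those of JUN AA and of the iCAFs against MRC5.

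Set directly against JUN AA, JUN WT had all 14 ER folding genes higher, where 62.5% of all genes were higher and 37.5% lower, or 12 of 14 on centring, which turned the small changes of DNAJB9 and SDF2L1. By 2-fold or more, 6 members were higher and 6 lower, where the shares of all genes were 6.65% and 5.61%. With libraries rescaled to one FPKM sum the split was 8 higher and 3 lower, and with length and GC trends removed 2 and 6. The 6 higher were MANF (3.56-fold), PDIA6 (2.89), PDIA4 (2.71), XBP1 (2.57), CALR (2.43) and HSPA5 (2.14), all with chaperone, isomerase or chaperone-inducing roles apart from the secreted factor MANF. The 6 lower were PHGDH (3.09-fold), PSAT1 (2.77), TRIB3 (2.70), ASNS (2.39), SHMT2 (2.36) and DDIT4 (2.27). At 1.5-fold, 14 members were higher and 6 lower, against 22.1% and 12.5% of all genes. The median was 0.69 over the ER folding genes and -0.86 over the ATF4 arm, or 0.51 and -1.05 centred. This comparison shares the JUN WT and JUN AA libraries with those against control and is not separate evidence.

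Base composition differed between the lists. The main transcripts of the ER folding genes had a median GC content of 46.0% and those of the ATF4 arm 57.1%. With the trends of the change on transcript length and GC content removed, the median in JUN WT against control was 0.26 over the ER folding genes, with 12 of 14 still positive, and -1.03 over the ATF4 arm. HSPA5 and PDIA6 were then 0.67 and 0.78 higher, under 2-fold.

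In the iCAFs, the ER folding genes and the ATF4 arm lay on the same side of untreated MRC5. Of the 33 members, 28 were higher than in MRC5 and 5 lower, where 40.6% and 59.4% of the 11780 genes passing the filter were. By 2-fold or more 1 was higher and none lower, against 1.94% and 1.71% of all genes. At 1.5-fold, 9 members were higher and 1 lower, against 4.69% and 6.43% of all genes. The median change was 0.42 over the ER folding genes and 0.43 over the ATF4 arm, against -0.06 over all genes, and centred they were 0.48 and 0.49.

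Among the folding genes, those with the highest change in iCAFs were PDIA4, MANF, HYOU1 and DNAJB9. PDIA4 had 48.0 FPKM in MRC5, 84.2 in the iCAFs and 118 with the inhibitor. MANF had 30.75, 52.9 and 61.1 FPKM, and HYOU1, which was not higher in JUN WT, had 27.5, 45.7 and 48.3. DNAJB9, an HSP40 protein that returns IRE1 to rest, had 11.4, 17.7 and 19.6 FPKM. These are the 4 folding genes past 1.5-fold in iCAFs, at log2 changes of 0.60 to 0.80, and in each the inhibitor-treated library was the highest of the table. HSP90B1 was just short of that limit at 258, 385 and 427 FPKM.

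Further folding genes ran in the same order with smaller steps from MRC5 to the iCAFs. HSPA5 had 158 FPKM in MRC5, 213 in the iCAFs and 227 with the inhibitor, and CALR had 663, 876 and 1000.5. PDIA3 had 138, 170 and 217 FPKM, and DNAJB11 had 34.6, 49.1 and 52.8. DNAJC3 (13.0, 14.8 and 16.4 FPKM), SDF2L1 (22.1, 23.9 and 26.0) and CRELD2 (27.8, 29.6 and 32.0) also followed it. CANX was nearly level at 187, 210 and 203 FPKM. PDIA6, with the second highest change in JUN WT, had 159, 155 and 182 FPKM and was the one folding gene not higher in iCAFs, by -0.03, which centring turned to 0.03.

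**Figure D3:**
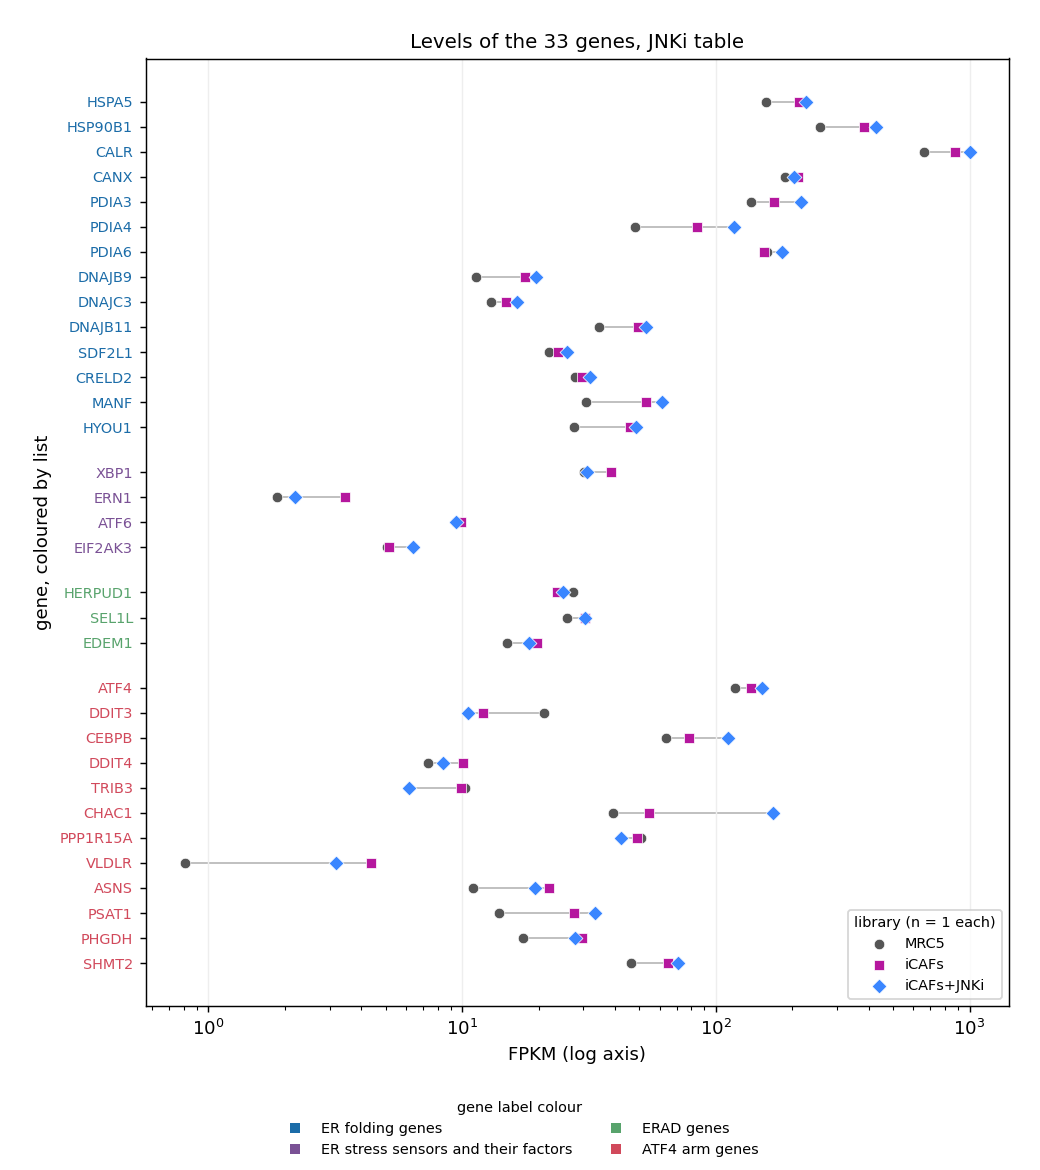
FPKM on a log axis of the 33 genes (rows, coloured by list) in MRC5 (grey), iCAFs (magenta) and iCAFs+JNKi (blue), 1 library each. MRC5 is the leftmost point for most ER folding and amino acid synthesis genes, and CHAC1 stands out with iCAFs+JNKi at 168 FPKM.

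The sensors and ERAD genes differed less between these libraries. XBP1 had 30.2 FPKM in MRC5, 38.6 in the iCAFs and 31.05 with the inhibitor, so that the inhibitor-treated library was back near MRC5. ERN1 showed the same shape at a low level, 1.86, 3.46 and 2.2 FPKM, a log2 change of 0.64 in iCAFs and -0.48 with the inhibitor. XBP1 and ERN1, both of the IRE1 branch, were thus lower with the inhibitor than in iCAFs, as were 62.6% of all genes. Of all genes, 25.2% had a lower change than XBP1 and 12.3% a lower change than ERN1. In the same comparison 13 of 14 folding genes were higher. ATF6 was level at 9.44, 9.89 and 9.48 FPKM, and EIF2AK3 had 5.06, 5.13 and 6.43. SEL1L had 26.0, 30.6 and 30.6 FPKM, EDEM1 15.0, 19.8 and 18.3, and HERPUD1 27.4, 23.7 and 25.0, lower in iCAFs by 0.20.

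In the ATF4 arm, the amino acid synthesis enzymes that were low in JUN WT were high in iCAFs relative to MRC5. ASNS had 11.01 FPKM in MRC5, 22.0 in the iCAFs and 19.4 with the inhibitor. PSAT1 had 14.0, 27.7 and 33.5 FPKM, PHGDH had 17.35, 29.7 and 28.0, and SHMT2 had 46.3, 64.5 and 70.7. The log2 changes in iCAFs were 0.94 for ASNS and PSAT1, 0.74 for PHGDH and 0.47 for SHMT2, and 2.11% of all genes had a higher change than PSAT1. VLDLR, the member at least 2-fold higher, had 0.81, 4.36 and 3.18 FPKM, a log2 change of 1.57. All 5 stayed above MRC5 with the inhibitor.

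The regulators of the arm were less uniform. ATF4 mRNA had 119 FPKM in MRC5, 137 in the iCAFs and 152 with the inhibitor, and CEBPB had 63.4, 78.6 and 112. DDIT4 had 7.36, 10.1 and 8.44 FPKM. DDIT3 was the one member at least 1.5-fold lower in iCAFs, at 20.9, 12.1 and 10.6 FPKM, a log2 change of -0.75. TRIB3 (10.2, 9.92 and 6.20 FPKM) and PPP1R15A (50.9, 49.1 and 42.2) were about level in iCAFs, with changes of -0.04 and -0.05 that turned positive on centring, and lowest with the inhibitor.

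With the inhibitor, CHAC1 had the largest change of the members. It had 39.25 FPKM in MRC5, 54.3 in the iCAFs and 168 with the inhibitor, which made it the most abundant ATF4 arm gene of that library. Against iCAFs it was 3.09-fold higher, a log2 change of 1.61 that 0.747% of all genes exceeded, and it was the one member at least 2-fold higher in this comparison. None was at least 2-fold lower. The shares of all genes were 2.25% and 1.97%. At 1.5-fold, CHAC1 was again the one member higher and TRIB3, at -0.60, the one lower, against 5.24% and 7.68% of all genes.

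The other members differed by less than 2-fold between iCAFs and iCAFs+JNKi. The ER folding genes had 13 of 14 higher by small amounts, where 37.4% of all genes were higher and 62.6% lower, with a median of 0.14 (0.24 centred) and a top value of 0.49 for PDIA4. CEBPB was 0.50 higher, PDIA3 0.35, EIF2AK3 0.28 and PSAT1 0.27. In the same comparison 8 of the 9 fibroblast markers were higher, all but VIM at -0.45, and their part in these values was not tested. The ATF4 arm had a median of -0.13, which centring took to -0.03 and the removal of length and GC trends to 0.07. The changes of CANX, ATF6, SEL1L, EDEM1, DDIT3 and PHGDH were under 0.18 in size and changed sign under at least 1 scaling.

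Against untreated MRC5, iCAFs+JNKi had 29 of 33 members higher and 4 lower, where 33.6% and 66.4% of all genes were. By 2-fold or more 4 were higher and none lower, against 3.28% and 3.53% of all genes. The 4 were CHAC1 (4.28-fold), VLDLR (3.94), PDIA4 (2.47) and PSAT1 (2.39). At 1.5-fold, 15 members were higher and 2, DDIT3 and TRIB3, lower, against 7.27% and 14.7% of all genes. All 14 ER folding genes were higher, with a median of 0.60, and the ATF4 arm had a median of 0.63, where all genes had -0.16. Centred, these were 0.76 and 0.79. HERPUD1, 0.13 lower, was slightly higher after rescaling, centring or trend removal. This comparison shares both libraries with the preceding ones.

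Other genes of these pathways were counted to place the members. In JUN WT against control, 16 of 20 other ERAD genes were higher (median 0.53), with NGLY1, a deglycosylating enzyme, at 1.40 and AUP1 at -0.48, and 21 of 24 translocon and signal peptide genes were higher (median 0.45), with SEC11C at 1.30 and SSR4 at -0.39. These shares stand beside the 60.9% of all genes that were higher. With length and GC trends removed the medians were 0.21 and 0.10, and 16 of the 24 translocon genes were higher. The other ER folding enzymes were mixed, 14 of 20 higher with a median of 0.27 (0.12 centred), from ERP44 at 1.11 to PRKCSH at -0.69. Of the 10 amino acid transporters, 9 were lower, 3 at least 2-fold, against 39.1% and 3.39% of all genes. Their median was -0.83, and -0.77 with the trends removed, with the glycine transporter SLC6A9 lowest at -2.04 and SLC7A1 highest at 0.18. The 20 cytosolic aminoacyl-tRNA synthetases, many of them ATF4 targets too, had a median of 0.18, near that of all genes, from FARSB at 1.44 to WARS at -1.28. Of 22 other ATF4 targets and partners, 16 were lower (median -0.42, and -0.57 centred). In this list 6 were at least 2-fold lower and 4 at least 2-fold higher, against 3.39% and 6.92% of all genes. They ran from NUPR1, at 571 FPKM in control and 128 in JUN WT, to ATF3, at 7.87 and 38.2 FPKM.

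**Figure D4:**
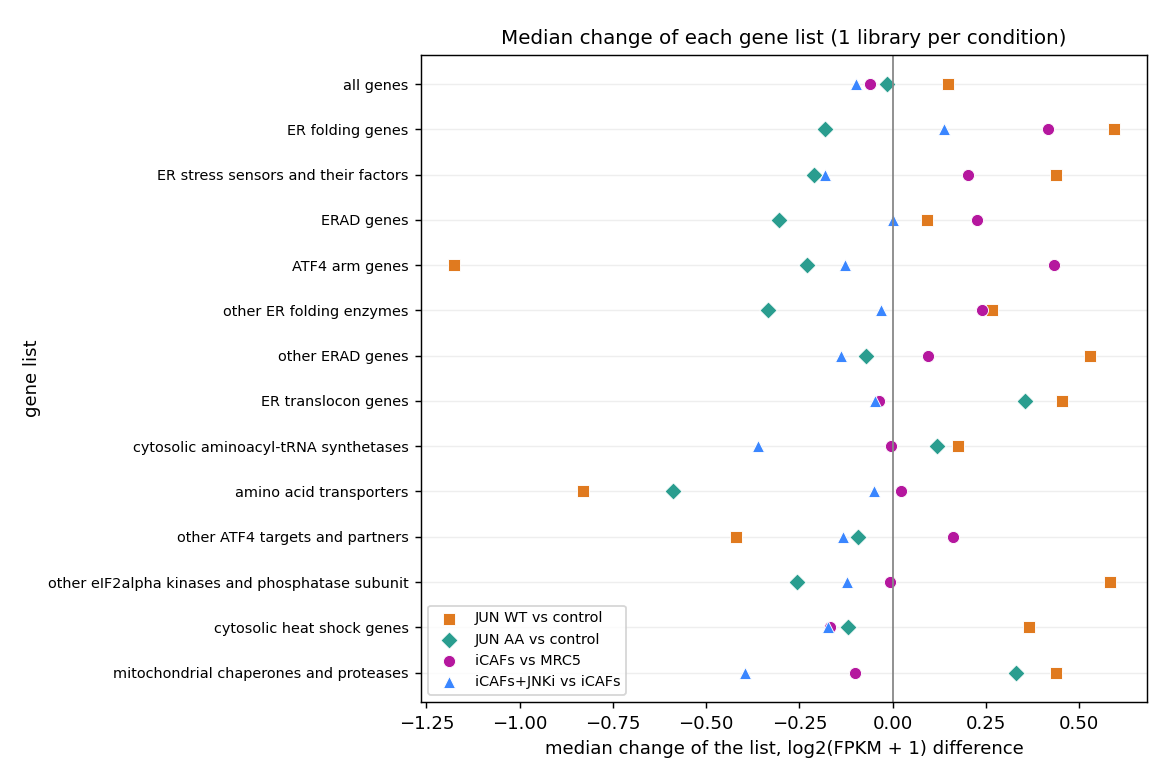
Median change in log2(FPKM + 1) of each gene list (rows) in JUN WT and JUN AA against control, iCAFs against MRC5 and iCAFs+JNKi against iCAFs, with all genes passing the filter in the top row. JUN WT has the ATF4 arm (-1.18) and the amino acid transporters (-0.83) far to the left of its other lists, and the ER folding genes (0.59) to the right of all genes (0.15), while the ERAD genes (0.092) lie to the left of all genes.

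Chaperones outside the ER also had medians above that of all genes in JUN WT (0.15, with 60.9% of genes higher). Of the cytosolic heat shock genes 9 of 13 were higher (median 0.37, and 0.22 centred), from HSPA8 at 1.13 to HSPB1 at -0.72. Of the mitochondrial chaperones and proteases 6 of 9 were higher (median 0.44, and 0.29 centred), from HSPD1 at 1.09 to LONP1 at -1.67. All 5 genes of eIF2α and of its other kinases and phosphatase subunit were higher (median 0.58), from EIF2S1 at 1.05 to PPP1R15B at 0.23. With length and GC trends removed the medians of these lists, in the order given, were 0.10, 0.03 and 0.15. With JUN AA, the transporters were again lower than control, 10 of 10 where 51.4% of all genes were. Their median was -0.59, from SLC38A2 at -0.25 to SLC1A4 at -0.93. The other ER folding enzymes had a median of -0.33 in JUN AA, from ERO1L at 0.87 to PRKCSH at -1.09. The other ATF4 targets had a median of -0.09 in JUN AA, from ALDH18A1 at 0.68 to GDF15 at -2.36. The translocon genes had 0.36, or 0.08 with the trends removed, from SEC11C at 1.27 to SEC61A1 at -0.73. In JUN WT against JUN AA, where 62.5% of all genes were higher, so were 18 of 20 other ER folding enzymes (median 0.61, ERP44 at 1.27 to UGGT2 at -0.29). So were 19 of 20 other ERAD genes (0.61, DERL1 at 1.06 to AUP1 at -0.57). Of the heat shock genes 10 of 13 were (0.72, HSPA8 at 1.19 to HSP90AA1 at -0.66). Translocon genes (0.15, SEC61A1 at 0.84 to SEC61G at -1.53) and mitochondrial chaperones (0.11, HSPA9 at 0.45 to HSPE1 at -1.54) had medians under the 0.18 of all genes.

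In iCAFs against MRC5, 40.6% of all genes were higher and 59.4% lower, with a median of -0.06. The heat shock genes of the cytosol had 0 of 13 higher (median -0.17, and -0.11 centred), from HSP90AB1 at -0.05 to CRYAB at -0.64. Of these, 2 turned positive once length and GC trends were removed. Of the other ER folding enzymes 18 of 21 were higher (median 0.24), from UGGT2 at 0.58 to MLEC at -0.06. The transporters had a median of 0.02, from SLC7A5 at 0.90 to SLC43A1 at -0.78, the other ATF4 targets 0.16, from STC2 at 1.02 to NUPR1 at -0.86, and the synthetases 0.00, from MARS at 0.31 to FARSB at -0.17.

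With the inhibitor, 19 of the 20 synthetases were lower than in iCAFs (median -0.36, and -0.26 centred), from QARS at 0.11 to FARSB at -0.62, and the mitochondrial chaperones had a median of -0.39 (-0.30 centred), from LONP1 at 0.02 to HSPE1 at -0.79. Of the other ER folding enzymes 10 of 21 were higher (median -0.03), from the isomerase PDIA5 at 0.98 to TOR1A at -0.36, where 37.4% of all genes were higher. On centring 16 of the 21 were higher, with a median of 0.07. Of the other ATF4 targets, 9 of 21 were higher (median -0.13), from NUPR1, a stress-induced chromatin protein at 30.1 FPKM in iCAFs and 75.9 with the inhibitor, to ATF5 at 22.8 and 11.2.

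Some values rest on shared sequence. On GRCh37, exons of HSP90B1, CANX, PDIA3, PDIA6, DNAJB11, CRELD2, DDIT3, VLDLR and SHMT2 overlap those of a gene on the opposite strand, and HSP90B1 also overlaps MIR3652 on its own strand. The same holds, of the further genes named, for NGLY1, AUP1, DERL1, SSR4, PRKCSH, SLC6A9, WARS, HSP90AA1, HSPD1, HSPE1, LONP1, SEC61A1, CRYAB and ATF5 with the opposite strand and for PDIA5, HSPE1, HSPA9 and ATF5 with their own. MARS and QARS were not matched to the annotation by symbol. The strand setting of the counting is not given in the sources used here, so reads of such pairs may not have been told apart.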

How the data were processed

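Total RNA of 6 MRC5 cultures, 1 per condition, was sequenced. The authors mapped reads to hg19 with HISAT2 2.1.0 at default settings and used StringTie 2.1.1 for the FPKM they deposited. The annotation, the strand setting and the number of reads are not given in the sources used here, so the depth and the precision of single values are unknown. Low FPKM showed no common step of 1 read in the JUN overexpression table. In the JNK inhibition table the ratios of low values did gather. For iCAFs against MRC5, 2.71% of genes with low FPKM fell in the fullest bin of the ratio, against a median of 0.388% per bin around it. No count model was used.

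Each table has 25370 rows. Rows were read by symbol, and where a symbol had more than 1 row (4 rows, no member) the one of highest mean was used. Differences of log2(FPKM + 1) were computed within a table in Python 3.11.15 with numpy 2.4.6 and pandas 2.3.3 for 6 comparisons, over genes whose 3 libraries averaged 1 FPKM or more. Limits were 2-fold (log2 of 1) and 1.5-fold (log2 of 0.58). With 1 library per condition no test was run. The calculation was checked on simulated data for the JUN overexpression table, where 199 of 200 changed genes among 10308 were recovered. The planted changes were larger than 2-fold, in genes well above the filter, and the noise was a small assumed value. The check therefore covers the arithmetic and not the precision of these libraries. Alternatives were a pseudocount of 0.1 FPKM, other filters, rescaling, centring, list means, summed rows, and subtraction of the median change in 20 bins of transcript length and of GC content, with GRCh37 and GENCODE transcripts matched for 98.0% and 97.7% of genes.

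The members and all gene lists were chosen with earlier results of these data known. All members are named, and of a further list the genes with the highest and the lowest change where the list is described for a comparison. Promoter sequences are from RefSeq.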

Additional observations from a re-analysis of the deposited data

Results flagged for a closer look

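Several values lay on opposite sides of the control with JUN WT and with JUN AA, and the difference between them was not tested, because each condition has 1 library and the same control library stands in both comparisons. The median log2 change of the ER folding genes was 0.59 with JUN WT and -0.18 with JUN AA. That of the stress sensors and their factors was 0.44 and -0.21, and that of the ERAD genes 0.092 and -0.30, of which the first turned negative on centring. Of single members past 1.5-fold in both directions, the disulfide isomerase PDIA4 was 0.77 higher than control with JUN WT and had a log2 change of -0.62 with JUN AA, and the transcription factor XBP1 was 0.74 higher and had -0.59. JUN RNA was at 4543 FPKM with JUN WT and 291 with JUN AA.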

How the results depend on the processing

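No paired analysis was possible because each condition has 1 library and the labels carry no replicate numbers, and for the same reason no library could be left out. Of the medians of the ER folding and ATF4 arm lists under all alternatives, 91 of 96 moved by less than 0.25 on the log2 scale. The sensor, ERAD and further lists were not counted here. Centring, summed rows and the absence of a filter could not move these medians past 0.25, since all genes of both lists pass the filter. Of the counts of members past 2-fold, 80 of 84 stayed within 1.5 times, and 0 values that were past a limit changed sign. With FPKM rescaled to one sum, the median in JUN AA against control was -0.49 over the ER folding genes and -0.54 over the ATF4 arm, with 3 members at least 2-fold lower instead of 1, and in JUN WT against JUN AA it was 1.00 over the ER folding genes, with 3 members at least 2-fold lower instead of 6. With the filter set at 5 FPKM, the ATF4 arm median in JUN WT against JUN AA was -1.16, and 0 members were at least 2-fold higher in iCAFs than in MRC5 instead of 1, since VLDLR no longer passed the filter. With trends of transcript length and GC content removed, the ER folding median in JUN WT against control was 0.26, and 2 members instead of 6 were at least 2-fold higher in JUN WT than in JUN AA. Among single genes 863 of 975 values moved by less than 0.25. Summed rows and centring could not take a gene past that limit. No member shares a symbol, and centring shifts each value by 0.18 at most. Under rescaling 133 of 195 values stayed within the limit, and with length and GC trends removed 148 of 195. Where a value moved under rescaling or trend removal, the cause was not tested.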
